A study of Mus musculus with 24 samples.

Results

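The genes described are 8 neurotrophic factors and receptors of the mouse hypothalamus: the ligands Bdnf, Ntf3, Adcyap1 and Cntf and the receptors Ntrk2, Ntrk3, Adcyap1r1 and Cntfr. They were taken by gene identifier from a table of 55471 genes counted in hypothalamic RNA, and each of the 8 had a row. After edgeR's expression filter, 18992 genes were tested, among them 7 of the 8; Cntf did not pass.

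Chow-fed lean male C57BL/6J mice, 18 weeks of age and with no genetic alteration, carried a gastric catheter. Mice undergoing experimental overfeeding (ExpOF) were infused for 14 days with a hypercaloric liquid diet supplemented with sucrose, and control mice were infused with water. After overfeeding ended, overfed and control mice alike were infused with water. The hypothalamus was sampled at the end of overfeeding (d14) or 3 days later (d14+3), in 4 groups of 6 mice with 1 library per mouse. The study removed 1 Control d14 mouse for poor RNA quality. Replicate 4, with an RNA integrity number of 9.8, was inferred to be that mouse by matching the study's mean expression values. The values below thus rest on 23 libraries, 5 of them in Control d14.

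Brain-derived neurotrophic factor (BDNF) and neurotrophin-3 are secreted growth factors that act on receptor tyrosine kinases of the Trk family, BDNF chiefly on TrkB (Ntrk2) and neurotrophin-3 chiefly on TrkC (Ntrk3). In the ventromedial hypothalamus, BDNF and TrkB restrain feeding, and mice or humans that lack their function become hyperphagic and obese. Pituitary adenylate cyclase-activating polypeptide (PACAP, encoded by Adcyap1) is abundant in the same nucleus, reduces food intake when given into the brain, and acts on the G protein-coupled receptor PAC1 (Adcyap1r1). Ciliary neurotrophic factor (CNTF) also reduces feeding and signals through an alpha receptor (Cntfr) that recruits gp130 and the LIF receptor.

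The libraries held 8928182 to 34848437 counts assigned to genes, and no 2 libraries of a group were duplicates. The left-out library was the lowest of Control d14 for 7 of the 8 genes, with the exception of Ntf3: Bdnf was at 6.13 CPM (read counts relative to library size, scaled by TMM factors), against 15.7 to 21.3 in the other Control d14 mice, and Ntrk3 at 41.5 CPM, against 109 to 198. In the other 23 libraries hypothalamic identity was checked with 8 genes (Nkx2-1, Hcrt, Pmch, Oxt, Avp, Pomc, Rax and Six3), each of which was above 0 in every library. Markers of the neighbouring thalamus were also present, and their summed level differed between the days, as given beside Adcyap1. The choroid plexus gene Ttr ranged from 1.01 to 2889 CPM.

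Expression levels were first compared between the 8 genes per length, as CPM divided by the summed exon length in kilobases, over the 23 libraries. Each receptor was above its chief ligand on this scale. The length takes in the exons of all annotated transcripts, 19292 bases for Ntrk2 and 30170 for Ntrk3, so the order depends on the annotation. The counts do not separate the transcript forms of a gene. Adcyap1r1 had the highest level, 73.1 ± 3.98 CPM per kb (SD, n = 23). Ntrk2 followed at 47.3 ± 4.17 CPM per kb, Cntfr at 28.5 ± 3.69 and Adcyap1 at 23.5 ± 3.13. Lower levels were found for Ntrk3, at 4.98 ± 0.963 CPM per kb, and for Bdnf, at 2.70 ± 0.324. Ntf3 (0.355 ± 0.138 CPM per kb) and Cntf (0.191 ± 0.0956) were near the limit of counting. Neighbours in this order kept it in 23 of 23 libraries, except for Cntfr above Adcyap1 and Ntf3 above Cntf, each in 20 of 23. Within each of these pairs the ranges over the libraries overlapped.

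**Figure D1:**
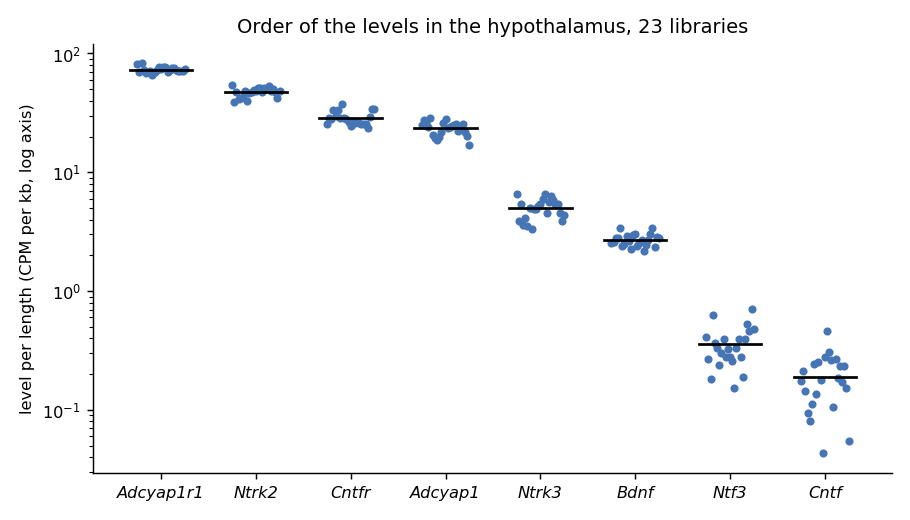
Level per length of the 8 genes (CPM per kb, log axis). Each point is 1 of 23 libraries and the bar is the mean; Adcyap1r1 is highest at a mean of 73.1 and Cntf lowest at 0.191.

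Bdnf (ENSMUSG00000048482; mm10 chr2:109674700-109727007, plus strand) is read from several alternative first exons, each with a promoter of its own, and the counts do not separate them. One of these promoters is known as a target of the cAMP-responsive factor CREB, and the Adcyap1 product itself raises cAMP, so the bases before the annotated starts were searched for the cAMP response element. Neither strand of the 20 windows of 250 bases before the RefSeq starts of 7 of the genes (GRCm38.p6) held the palindrome TGACGTCA, which 1.55% of 32841 windows in the genome hold. The core TGACG, which lies inside the palindrome, was found on either strand in 3 of the 20 windows, 2 of which overlap before starts of Adcyap1 and hold the same site, against 17.8% of all windows. Ntrk3 had no entry. The 2 windows below, from separate genes, are shown because they hold the core. Capitals mark it, at position -91 from the start in Adcyap1 and at -35 in Bdnf, where it lies on the minus strand. The first window is chr17:93198767-93199016 and the second chr2:109692186-109692435, both on the plus strand and free of annotated exons of their gene.
Adcyap1: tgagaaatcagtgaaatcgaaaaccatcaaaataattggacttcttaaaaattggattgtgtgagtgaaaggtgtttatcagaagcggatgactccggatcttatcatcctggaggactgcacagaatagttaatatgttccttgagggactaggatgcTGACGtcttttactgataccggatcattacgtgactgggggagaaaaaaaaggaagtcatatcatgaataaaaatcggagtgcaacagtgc
Bdnf: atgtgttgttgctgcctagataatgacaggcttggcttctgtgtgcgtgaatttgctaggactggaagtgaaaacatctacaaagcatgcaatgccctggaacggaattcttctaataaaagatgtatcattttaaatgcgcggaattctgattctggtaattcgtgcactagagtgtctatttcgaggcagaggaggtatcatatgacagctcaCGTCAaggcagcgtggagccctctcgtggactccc
A match of letters is a description and was not tested as a binding site.

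Of the 3 ligands tested, 0 passed the threshold with overfeeding on d14, where 0.00527% of all genes did. Bdnf was at 15.7, 16.1, 17.3, 17.4 and 21.3 CPM in Control d14 and between 13.6 and 18.7 CPM (median 15.6) in ExpOF d14. The groups overlapped, although 3 of the 6 ExpOF mice were below every control. The log2 fold change was -0.14 (SE 0.0986, adjusted p = 0.344), with a 95% interval from -0.35 to 0.07, and -0.20 and -0.05 in the July and September cohorts. An antisense gene, Gm45346, shares 14.4% of the exon bases of Bdnf but drew 47 counts over all libraries.

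Adcyap1 (ENSMUSG00000024256; chr17:93199017-93206537, plus strand) stood at 90.3 to 108 CPM (median 97.9, n = 5) in Control d14 and at 89.3 to 106 CPM (median 93.8, n = 6) in ExpOF d14. The ranges nearly coincided, and the log2 fold change was -0.05 (SE 0.0897, adjusted p = 0.720; interval -0.24 to 0.14). Ntf3 (ENSMUSG00000049107; chr6:126101412-126166715, minus strand) rested on 6 to 32 counts per library. Its level was 0.310 to 1.08 CPM in Control d14 and 0.263 to 0.676 CPM in ExpOF d14, a log2 fold change of -0.47 (SE 0.307, adjusted p = 0.318) with a wide interval, from -1.11 to 0.18. The sign of this estimate differed between the cohorts in which the mice were killed, at 0.09 (SE 0.362) in July and -1.06 (SE 0.504) in September, which had 2 controls.

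Cntf (ENSMUSG00000079415; chr19:12763660-12765632, minus strand) had between 1 and 10 counts per library. In ExpOF d14 it was at 0.113 to 0.500 CPM, and 5 of the 6 mice were above every control, which ranged from 0.0862 to 0.230 CPM. A two-sided exact permutation test of log2 CPM gave p = 0.0390, which is not adjusted over genes. With a filter that keeps every gene with a count, the log2 fold change was 1.07 with an adjusted p of 0.264 over 39970 genes. Of the exon bases of Cntf, 78.9% lie in exons of Zfp91 on the same strand, a gene at 73.3 to 105 CPM with a log2 fold change of 0.16 (SE 0.0838, adjusted p = 0.207). Reads from the shared bases cannot be assigned to either gene, so the level of Cntf is uncertain. On d14+3 the same fit gave 0.14 for Cntf (adjusted p = 0.998).

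**Figure D2:**
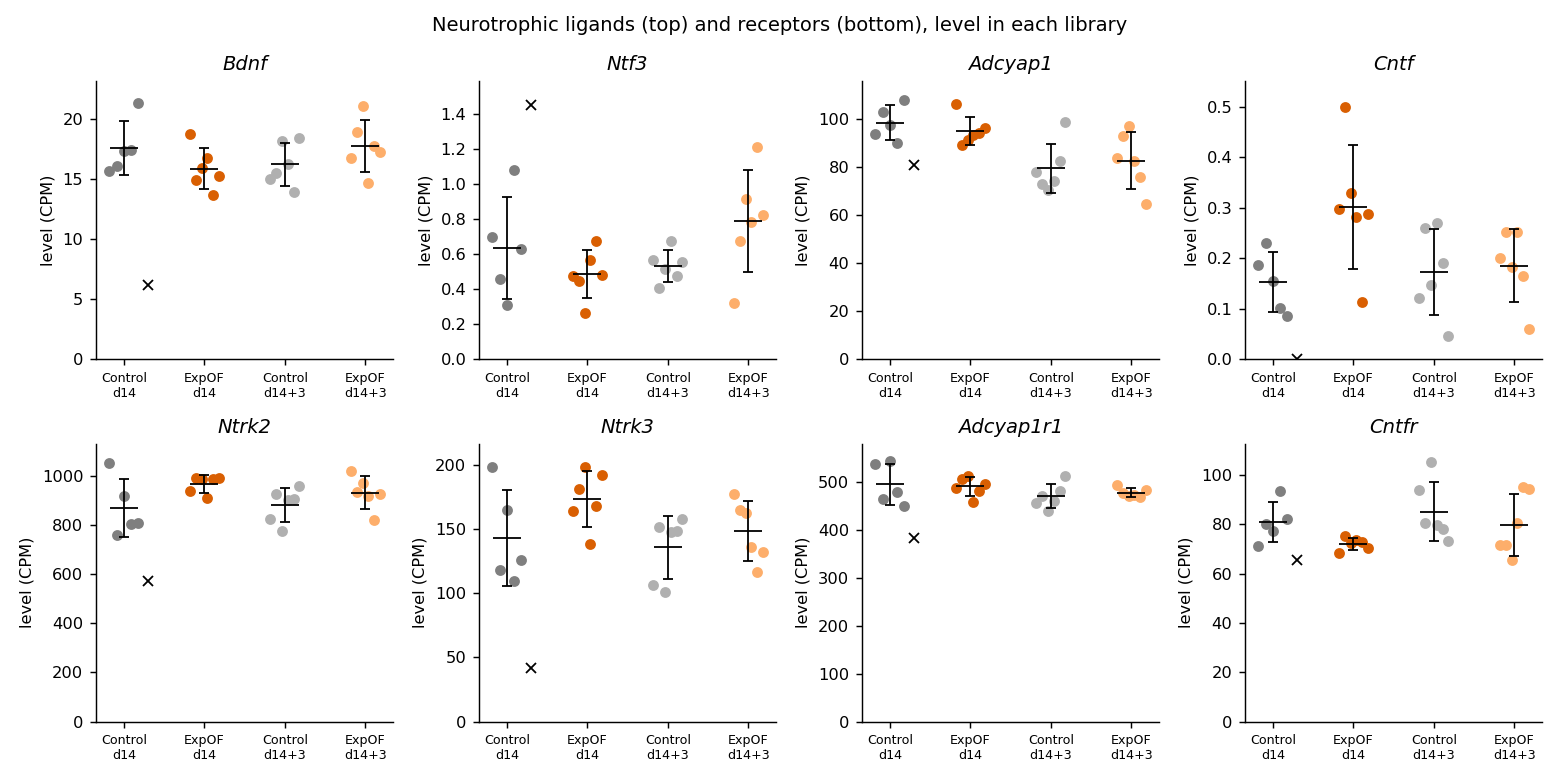
Level of each ligand (top) and receptor (bottom) in CPM by group; points are libraries, bars the mean ± SD over 5 (Control d14) or 6 libraries, and the cross is the left-out Control d14 library. Groups overlap within each day for the 8 genes, and the left-out library is below the other Control d14 libraries for 7 of the 8, among them Bdnf (6.13 CPM) and Ntrk3 (41.5 CPM).

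Of the receptors, both Trk genes had higher means in ExpOF d14 without passing the threshold. Ntrk2 (ENSMUSG00000055254; chr13:58806569-59129965, plus strand) was at 758, 805, 806, 915 and 1051 CPM in Control d14 and between 907 and 990 CPM (median 985) in ExpOF d14. The highest value of either group was that of a control mouse, replicate 1. The log2 fold change was 0.15 (SE 0.0718, adjusted p = 0.175), with an interval from 0.00435 to 0.31. Ntrk3 (ENSMUSG00000059146; chr7:78175959-78738010, minus strand) was at 109, 118, 125, 165 and 198 CPM in Control d14 and between 138 and 198 CPM (median 175) in ExpOF d14, a log2 fold change of 0.28 (SE 0.149, adjusted p = 0.220). Control d14 replicate 1 was again the highest control. By their dates of killing the mice form July and September cohorts, and replicate 1 is 1 of the 2 September controls in use. The log2 fold change of Ntrk2 was 0.23 (SE 0.0906) in July and 0.05 (SE 0.127) in September, and that of Ntrk3 0.33 (SE 0.157) and 0.19 (SE 0.266).

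Without Control d14 replicate 1, Ntrk2 and Ntrk3 both passed the threshold, with log2 fold changes of 0.24 (adjusted p = 0.0209) and 0.43 (adjusted p = 0.0352), but so did 4220 genes in place of 1. On d14 the Trk genes moved with a broad component of the libraries. The mean log2 CPM of 81 ribosomal protein genes was 5.91 in Control d14 replicate 1 and 6.15 to 6.69 in the other Control d14 mice. In ExpOF d14 it was 5.98 to 6.19. With this mean as a covariate, chosen after the values were seen, the d14 log2 fold changes were 0.02 for Ntrk2 (adjusted p = 0.999) and 0.01 for Ntrk3 (adjusted p = 0.999). ExpOF d14+3 went the other way. Its median ribosomal protein level was lower than that of ExpOF d14 (5.94 against 6.08), but so were its means of Ntrk2 (930 against 965 CPM) and Ntrk3 (148 against 174 CPM). The part of ribosomal protein level in the Trk values, or the reverse, was not tested further, since this level is itself measured in the same libraries and differs between the groups.

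**Figure D3:**
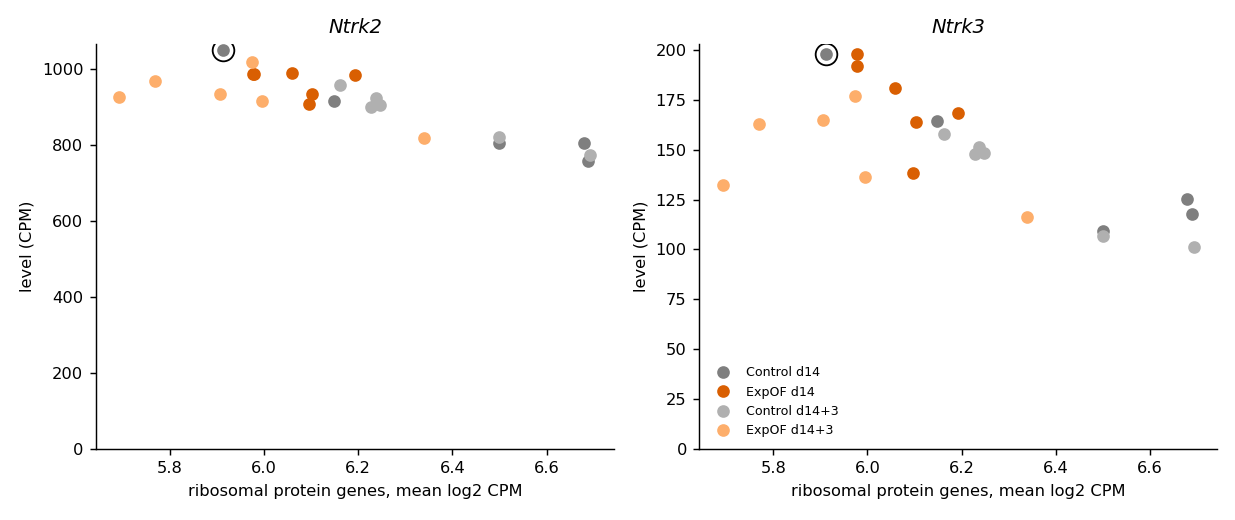
Level of Ntrk2 and Ntrk3 (CPM) against the mean log2 CPM of 81 ribosomal protein genes in 23 libraries, colored by group; the ring marks Control d14 replicate 1. Outside ExpOF d14+3, libraries with a lower ribosomal protein level tend to have higher Trk levels, and the ringed control (1051 and 198 CPM) has a lower ribosomal protein level than any ExpOF d14 library (5.91 against 5.98 or more).

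Adcyap1r1 (ENSMUSG00000029778; chr6:55451978-55498905, plus strand) was the least variable of the 8 genes, with a coefficient of variation of 5.44% over the 23 libraries. It was at 448 to 544 CPM in Control d14 and at 459 to 512 CPM in ExpOF d14, and the interval of the log2 fold change, -0.12 to 0.10 around -0.01, was the narrowest on d14 (adjusted p = 0.893). Cntfr (ENSMUSG00000028444; chr4:41657498-41697040, minus strand) was at 71.2, 77.4, 80.2, 82.2 and 93.3 CPM in Control d14 and within 68.2 to 75.1 CPM in ExpOF d14. Of the ExpOF mice, 2 of 6 were below every control. The exact permutation test gave p = 0.0195 for Cntfr, but the fit across all genes gave a log2 fold change of -0.17 (SE 0.0964) with an adjusted p of 0.254. With the ribosomal protein covariate it was -0.03 (adjusted p = 0.999). Of 32 permutation tests over the 8 genes and 4 comparisons, 4 were under 0.05.

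In all, 0 of the 7 genes tested passed the adjusted threshold on d14, where 0.00527% of all genes did, and 1 of 7, Ntrk2, was under an unadjusted p of 0.05, where 26.7% of all genes were. In 0 of the 8 did the groups fail to overlap, against 2.50% of all genes.

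At d14+3 the estimates of overfeeding for Bdnf, Ntrk2, Ntrk3 and Cntfr were smaller in size than on d14. Those of Adcyap1, Adcyap1r1 and Ntf3 were larger in size. Bdnf was at 14.6 to 21.1 CPM (median 17.5) in ExpOF and at 13.9 to 18.4 CPM (median 15.9) in control mice, and the log2 fold change was 0.13 (SE 0.0942, adjusted p = 0.775). The log2 fold change was 0.08 for Ntrk2 (interval -0.06 to 0.22), 0.13 for Ntrk3 (-0.17 to 0.43), 0.06 for Adcyap1 (-0.12 to 0.24), 0.02 for Adcyap1r1 (-0.08 to 0.13) and -0.09 for Cntfr (-0.29 to 0.10). Ntf3 had the highest estimate, 0.55 (SE 0.285, adjusted p = 0.723): its level was 0.321 to 1.21 CPM (median 0.806) in ExpOF and 0.408 to 0.675 CPM (median 0.534) in control mice. In ExpOF d14+3, 4 of 6 mice were above every control for Ntf3 and 1 was below. None of the 7 genes was called at d14+3 (0 of 18992 genes, 0%), 0 of 7 were under an unadjusted p of 0.05 (7.11% of all genes), and the groups overlapped for each of the 8 (0.421% of all genes did not overlap).

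**Figure D4:**
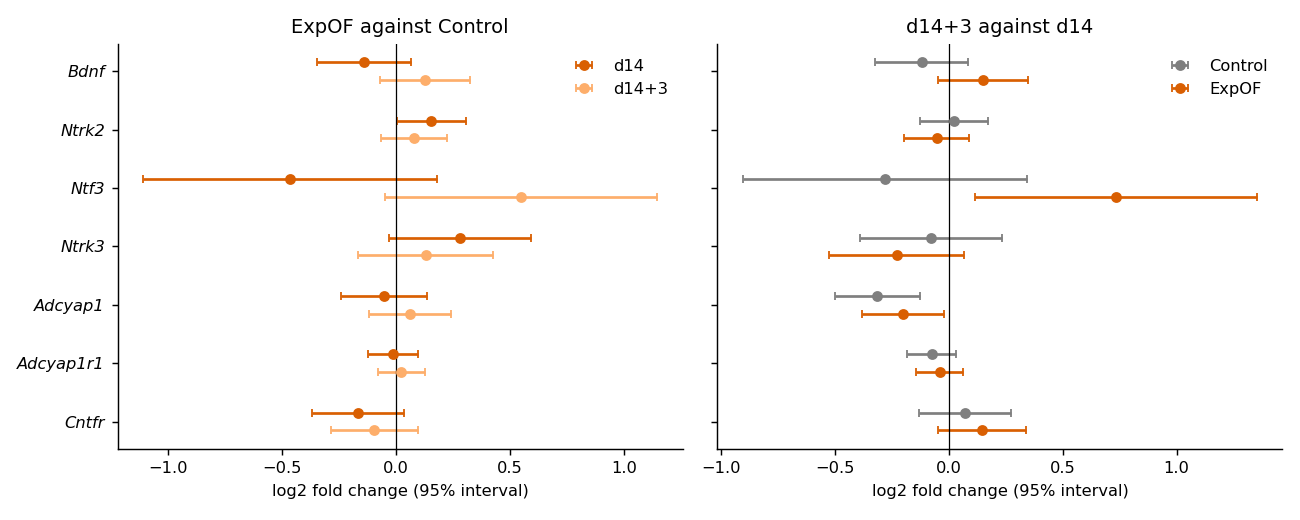
Log2 fold change with 95% interval of the 7 tested genes, for ExpOF against Control on each day (left) and for d14+3 against d14 in each diet group (right). Intervals on the left include 0 except that of Ntrk2 on d14 (lower bound 0.00435), and the right panel shows Adcyap1 below 0 in both diet groups.

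The difference between the days in the effect of overfeeding was tested by the interaction contrast, in which 0% of genes passed the adjusted threshold and 4.42% were under an unadjusted p of 0.05. For Bdnf, Ntf3, Adcyap1 and Adcyap1r1 the estimate for overfeeding was below 0 on d14 and above 0 on d14+3. Those of Adcyap1 (-0.05 and 0.06) and Adcyap1r1 (-0.01 and 0.02) were small on both days. For Ntf3 the estimate was above 0 on both days in the July cohort (0.09 and 0.64). The difference was 0.27 for Bdnf (SE 0.136, adjusted p = 0.903) and 1.01 for Ntf3 (SE 0.420, adjusted p = 0.903), so neither was distinguished between the days after adjustment, and Ntf3 was the 1 of 7 under an unadjusted p of 0.05. For the other 5 genes it lay between -0.15 and 0.11.

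In control mice Adcyap1 had the smallest adjusted p of the 7 tested genes between the days, without passing the threshold in edgeR, and its estimate was below 0 in both diet groups. In control mice it was at 90.3, 94.0, 97.9, 103 and 108 CPM on d14 and at 70.6 to 98.8 CPM (median 76.0) on d14+3, where 5 of 6 mice were below every d14 control. The log2 fold change of Control d14+3 against Control d14 was -0.31 (SE 0.0895, interval -0.50 to -0.12), with an adjusted p of 0.0888 in edgeR and an exact permutation p of 0.0130. DESeq2 gave -0.31 with an adjusted p of 0.0357, and edgeR without Control d14+3 replicate 6, the highest of its group, gave -0.38 with an adjusted p of 0.0218. Within the July cohort the difference was -0.31 and within the September cohort -0.30. In overfed mice Adcyap1 was at 89.3 to 106 CPM (median 93.8) on d14 and at 64.5 to 97.2 CPM (median 83.1) on d14+3, with 4 of 6 below every d14 mouse and a log2 fold change of -0.20 (SE 0.0859, adjusted p = 0.538; exact permutation p = 0.0368). Adcyap1 was the 1 of 7 genes under an unadjusted p of 0.05 in control mice, where 12.7% of all genes were and 1.15% were called; in overfed mice Adcyap1 and Ntf3 were, 2 of 7, where 7.79% of all genes were and 0% were called.

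Most marker genes of hypothalamic nuclei had lower estimates on d14+3 in control mice, as Adcyap1 did, although of those listed here Otp alone passed the threshold. The summed level of 3 ventromedial genes (Nr5a1, Fezf1 and Vgll2) had a median of 26.3 CPM in Control d14 (range 22.3 to 28.7) and 20.0 CPM in Control d14+3 (15.3 to 23.1), and of 24.5 and 19.8 CPM in the ExpOF groups. The estimates of all 3 were below 0 in control mice, and none was called in either comparison. The summed level of 4 paraventricular genes (Sim1, Otp, Crh and Trh) had medians that went from 178 to 143 CPM in control and from 166 to 137 CPM in overfed mice; Otp, which specifies neuroendocrine neurons, fell by 0.46 on the log2 scale in control mice (adjusted p = 0.0447), and was the 1 of 4 called, whereas Crh had an estimate of 0.16 (adjusted p = 0.802). Over the list of 8 hypothalamic genes 7 estimates were below 0 in control mice, that of Six3 was 0.09 and 0 were called, and the medians of the sums went from 757 to 564 CPM and from 653 to 499 CPM.

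The summed level of thalamic markers was higher on d14+3. The sum of Tcf7l2, Prkcd, Plekhg1 and Lef1 had a median of 127 CPM (range 93.5 to 359) in Control d14 and 446 CPM (278 to 629) in Control d14+3, and of 157 CPM (99.6 to 242) and 393 CPM (252 to 591) in the ExpOF groups, where the days did not overlap. All 4 had higher estimates on d14+3 in both diet groups, and 1, Plekhg1, rose past the threshold in control mice (log2 fold change 1.17, adjusted p = 0.0265). With the mean log2 CPM of these 4 genes as a covariate, chosen after the values were seen, the log2 fold change of Adcyap1 between the days was -0.15 (adjusted p = 0.323) in control and -0.03 (adjusted p = 0.925) in overfed mice. Fewer cells that express a gene and less of its RNA per cell cannot be told apart in tissue libraries, and the part of the dissected region in the Adcyap1 values was not tested beyond this covariate. Within a day the thalamic sum overlapped between ExpOF and control mice.

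**Figure D5:**
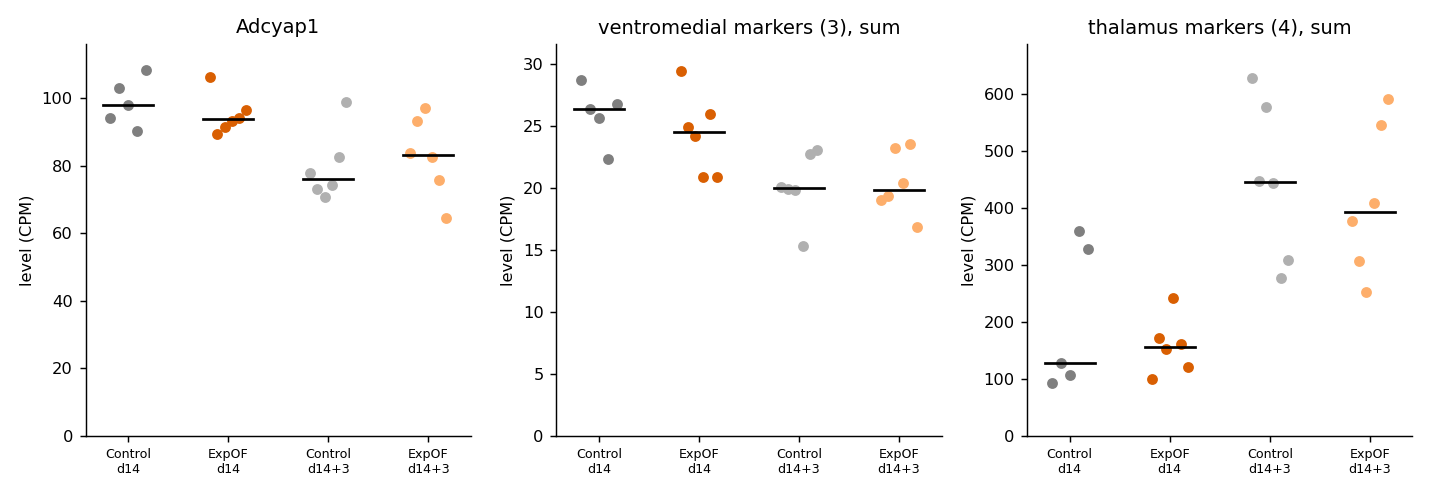
Level of Adcyap1, summed level of 3 ventromedial markers and summed level of 4 thalamus markers (CPM) in each of 23 libraries; the line is the group median. Medians of Adcyap1 (97.9 and 93.8 on d14, 76.0 and 83.1 on d14+3) and of the ventromedial sum are lower on d14+3, and that of the thalamic sum is higher (127 and 157 against 446 and 393).

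Of the 7 tested genes, 0 had a called difference between the days in either diet group. In overfed mice the estimate with the smallest adjusted p was that of Ntf3, 0.73 on the log2 scale (SE 0.295, adjusted p = 0.468), and its estimate in control mice was -0.28 (SE 0.298). Bdnf differed by -0.12 (SE 0.0981) in control and 0.15 (SE 0.0947) in overfed mice.

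Genes whose pattern over the 23 libraries was most like that of a member were listed among 14172 genes with a mean of at least 50 counts, by Pearson's correlation of log2 CPM and as a description. For Bdnf they included Cbln4 (r = 0.632) and Foxb1 (0.623), which encodes a transcription factor known from the mammillary region of the posterior hypothalamus. For Adcyap1 they were Sytl4 (0.879), Minar2 (0.879) and Qpct (0.875), the last an enzyme that forms pyroglutamate at peptide ends. Ntrk2 was most like Mycbp2 (0.983), Nedd4 (0.983) and Fam120c (0.982), but 1% of all candidates exceeded 0.953 for Ntrk2, so this pattern was shared widely. For Adcyap1r1 they were Dchs1 (0.956), Arnt2 (0.896) and Nfrkb (0.883). Among the members themselves Ntrk2 and Ntrk3 varied together (r = 0.923, n = 23), whereas Ntrk3 and Cntfr varied in opposite directions (r = -0.850). These points share their libraries and diet groups.

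Further genes of the pathways were taken from lists of 65 genes, of which 63 were tested. On d14, 0 of 63 passed the adjusted threshold, and the median log2 fold change was 0.05, against -0.02 over all genes. At an unadjusted p under 0.05, 15 were higher and 8 lower, where 13.1% and 13.6% of all genes were. With the ribosomal protein covariate, 880 of all 18992 genes were under that level on d14, in place of 5069. The listed genes were not examined with this covariate, so the part of the broad component in their estimates was not tested. Of 10 genes of the CNTF receptor complex and its signal, 5 were higher and 2 lower at that unadjusted level. The log2 estimates of those that were higher were 0.17 for Stat3, the transcription factor downstream of gp130 (SE 0.0455, adjusted p = 0.135), 0.38 for Lifr, 0.23 for Il6st, which encodes gp130, and 0.15 for Jak1 and 0.17 for Jak2, the receptor-associated kinases. Stat3 was at 94.6 ± 2.53 CPM (SD, n = 6) in ExpOF d14 and 84.2 ± 4.72 CPM (SD, n = 5) in Control d14. Its ranges, 91.5 to 97.3 and 79.6 to 91.0 CPM, did not overlap. Nor did those of Lifr (33.6 to 36.0 and 20.9 to 33.2 CPM) or of some other listed genes. Among all genes, 2.50% had groups that did not overlap on d14. The study, which tested with DESeq2, reported higher Stat3 expression in overfed mice on d14. DESeq2 results for the pathway lists are not given here.

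Of 6 further neurotrophin receptors, 4 were higher at that level and 0 lower, among them Sorcs1, a sorting receptor (0.23, adjusted p = 0.143). Among 11 activity-regulated or CREB-related genes, Homer1, a postsynaptic scaffold (0.40, adjusted p = 0.135), and Creb1 (0.38, adjusted p = 0.135) were higher at the unadjusted level and 0 were lower. Of 16 adaptors and kinases downstream of Trk receptors, 4 were higher and 2 lower, including Mapk3, which encodes ERK1 (-0.25, adjusted p = 0.140). Plat, the tissue plasminogen activator that takes part in cleaving proBDNF, was the 1 of 6 processing genes under that level (-0.19, adjusted p = 0.135). In the PACAP and VIP family 0 were higher and 1 of 6 lower, and in the GDNF family 0 were higher and 2 of 7 lower.

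At d14+3 the same lists gave 0 called genes of 63, 1 higher and 4 lower at an unadjusted p under 0.05, where 2.91% and 4.20% of all genes were, and a median of -0.01 against 0.01 over all genes. Gnas, which encodes the stimulatory G protein subunit that couples PAC1 to adenylate cyclase, had an estimate of -0.28 (SE 0.0772, adjusted p = 0.333), at 111 ± 7.62 CPM in ExpOF and 135 ± 16.4 CPM in control mice (SD, n = 6 each). Antisense transcription is known at the Gnas locus, and its reads cannot be told apart here. The immediate early gene Fos had an estimate of -0.70 (SE 0.227, adjusted p = 0.467), with 5.82 to 14.9 CPM in Control d14+3 and 3.45 to 7.60 CPM in ExpOF d14+3. Control d14+3 had the highest mean of Fos, 9.38 CPM. The means were 4.91 CPM in Control d14, 5.34 CPM in ExpOF d14 and 5.81 CPM in ExpOF d14+3, so Fos was not lower in overfed mice on d14+3 than on d14. The remaining estimates were -1.49 for Nrtn, a GDNF family ligand at no more than 1.06 CPM, -0.09 for the adaptor Grb2 and 0.10 for Stat3. Between the days in control mice 1 of 63 genes was called, where 1.15% of all genes were, so this share was near that of all genes. It was the adenylate cyclase gene Adcy1, which rose by 0.96 on the log2 scale (adjusted p = 0.0121), beside the rise of the thalamic sum; the part of the latter was not tested for Adcy1.

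RNA integrity numbers ranged from 8.0 to 10.0 in Control d14, 9.6 to 10.0 in ExpOF d14, 7.2 to 9.9 in Control d14+3 and 8.8 to 10.0 in ExpOF d14+3. With this number, or with cohort and extraction round, as a term in the fit, 0 of the 7 genes had a called coefficient for any of them, where 0% of all genes did in each case. Ntf3 had the lowest p, for the extraction round (coefficient 0.50, adjusted p = 0.986).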

How the data were processed

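Hypothalamic poly-A RNA was made into stranded libraries and read from both ends. The values the authors deposited are unnormalized read counts for each gene of GENCODE vM22, obtained with STAR (mm10) and featureCounts 1.6.4; whether counting used strand is not given in the sources used here. Positions and lengths are those of the same table. Of its 55471 identifiers, 55230 are in GENCODE vM21, which supplied the symbols.

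The 23 libraries the study used were fitted together in R 4.3.3 with edgeR 4.0.16: filterByExpr (minimum count 10, minimum total 15), TMM normalization, a robust quasi-likelihood fit of the 4 groups and the quasi-likelihood F-test. Adjusted p-values are Benjamini-Hochberg values over 18992 genes; the threshold was 0.05. Standard errors are the log2 fold change over the root of F, and 95% intervals use 19 residual degrees of freedom. CPM values are scaled by TMM factors; log2 CPM has a prior count of 2. The left-out library was identified by matching the study's mean expression values. Single values were compared by two-sided exact permutation tests over mice, whose smallest possible p is 0.00216 with 6 mice in each group. The fit was tested on simulated data for d14, among 18787 genes. Of 100 genes changed by 0.5 on the log2 scale it called 53, and of 100 changed by 1 it called 80. Each gene was simulated independently, without the broad component that the real libraries share. These counts therefore do not give the power of the real d14 comparison.

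The genes named are the 8 members, in each overfeeding comparison the genes of the pathway lists with an unadjusted p under 0.05 (at most the 12 with the smallest p), and the 3 genes most like each of 4 members; some genes that this rule takes in are not reported here. The members and lists were chosen with earlier results of these data known. Alternatives were DESeq2 1.42.0, its size factors, other count filters, only the 2 groups compared, all 24 libraries, each cohort alone, covariates and libraries left out in turn. Promoter windows are from RefSeq. No protein sequences were used here.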

Additional observations from a re-analysis of the deposited data

Results flagged for a closer look

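Ntf3 had a higher level in the left-out Control d14 library, replicate 4, than in any Control d14 library in use: 1.45 CPM from 14 counts, against a highest value of 1.08 CPM. That library was the lowest of Control d14 for the other 7 genes, and the role of its RNA in the Ntf3 value was not tested. Of 32 sets of values of 1 gene in 1 group, 0 held a library far from the others by Dixon's test, which flags about 1 in 20 by chance.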

How the results depend on the processing

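Under the alternatives run, 0 of the 7 genes tested passed the threshold on either day, except that 2 (Ntrk2 and Ntrk3) passed on d14 without Control d14 replicate 1; the range over libraries left out was 0 to 2 on d14 and 0 to 0 on d14+3. The count of all genes called on d14 was 1 and became 166 with DESeq2, 2 with only the 2 groups compared and 0 in the July or the September cohort alone; with each library left out it lay between 1 and 4220. On d14+3 the count of 0 became 55 with DESeq2 and 26 with RNA integrity as a covariate. For Adcyap1 between the days in control mice the adjusted p ranged from 0.0357 (DESeq2) to 0.879 over the alternatives. Low counts limit Ntf3 and Cntf most; Ntf3 gave no value when at least 10 counts were required in every library.

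The estimates of the 7 genes that changed sign, none of them past the threshold, were as follows, on the log2 scale, and the cause was not tested. When the left-out library was added, making 24, d14 estimates were 0.00245 for Adcyap1, 0.0537 for Adcyap1r1 and 0.0184 for Bdnf, the Control values between the days 0.0405 for Bdnf and 0.11 for Ntrk3, and the difference between the days -0.0369 for Adcyap1r1. In the September cohort alone, Adcyap1 was 0.0222 on d14, and Ntrk2 was -0.0641 for Control between the days and 0.00489 for the difference between the days. In the July cohort alone, the d14 values were 0.0173 for Adcyap1r1 and 0.0881 for Ntf3, the differences between the days -0.0163 for Adcyap1r1 and -0.000879 for Cntfr, and Ntf3 was 0.11 for Control between the days. With RNA integrity as a covariate, Adcyap1r1 was 0.00494 on d14 and Ntrk2 -0.00794 for Control between the days. With the ribosomal protein covariate, the d14+3 values were -0.11 for Ntrk2, -0.23 for Ntrk3, -0.0778 for Adcyap1r1 and 0.0826 for Cntfr. With the thalamic covariate, the values between the days in control and overfed mice were 0.0360 and 0.0732 for Adcyap1r1, -0.22 and -0.16 for Cntfr and 0.38 and 0.22 for Ntrk3, and Ntrk2 was 0.12 in overfed mice. With libraries left out in turn, Adcyap1r1 ranged from -0.0528 to 0.0236 on d14 and from -0.00866 to 0.0756 for the difference between the days, and in Control between the days Ntf3 ranged from -0.45 to 0.00906, Ntrk2 from -0.0225 to 0.10 and Ntrk3 from -0.16 to 0.0703.

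The replicate numbers are not known to pair mice. Deviations of same-numbered libraries from their group means correlated at -0.153 to -0.024 on d14 and -0.210 to 0.223 on d14+3, and no library correlated best with its own number. With the replicate block, 1 gene was called on d14 and 0 on d14+3, 0 of them members. The covariates for ribosomal protein and thalamic level, the cohort-alone and left-out fits of the contrasts between days, and the wider filter for Cntf were chosen after seeing the data.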
